A study of Mus musculus with 12 samples.

Results

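The glucocorticoid response and metabolism genes described here were 10 genes chosen by symbol: the receptor gene Nr3c1, the 11-beta dehydrogenase genes Hsd11b1 and Hsd11b2, and the target genes Tsc22d3, Fkbp5, Zbtb16, Per1, Sgk1, Dusp1 and Mt2. All 10 were among the 28244 genes listed and among the 17674 genes that passed the filter on low values. RNA sequencing was done on cell pellets grown from cells that the labels call murine mesenchymal progenitors, taken by collagenase digestion from the heads and condyles of the femurs and tibiae of C57/BL6 pups 5 or 6 days old. The pellets were kept in chondrogenic differentiation medium for 7 days and then in osteogenic differentiation medium for up to 21 days, and both media were replaced every 4 days. Each of the 4 groups had 3 libraries: D7 was taken before the change of medium, and D8, D10 and D28 were taken after 1, 3 and 21 days in osteogenic medium.

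No gene was altered and no steroid is named in the labels, and the glucocorticoid content of either medium was not given in the sources used here. Pellets left in chondrogenic medium beyond D7 were not analysed here, so days in culture and the change of medium cannot be told apart. Nothing in the labels says that the replicates came from separate animals or cultures, so the p-values measure the spread between these libraries, which may be technical. Values are log2 of the equalized count plus 1, and a difference of 1 on this scale is a 2-fold difference. In such bulk samples, fewer cells of a type and less RNA per cell cannot be told apart.

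Glucocorticoids are steroid hormones that enter the cell and bind a receptor held ready by the HSP90 chaperones. The bound receptor moves to the nucleus, where it raises the transcription of some genes through response elements in the DNA and lowers that of others, many of them inflammatory. The level of active hormone inside a cell is set in part by the dehydrogenases, since the product of Hsd11b1 regenerates active hormone and the product of Hsd11b2 inactivates it. In skeletal cell culture, synthetic glucocorticoids are widely used both in chondrogenic and in osteogenic media, and the receptor is also known to act in the formation of fat cells.

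Read from the lowest levels of each library, relative depth was 0.790 to 1.06 at D7, 0.962 to 1.22 at D8, 0.730 to 1.05 at D10 and 1.20 to 1.31 at D28, so that every D28 library was deeper than every D10 library. Between 11055 and 12383 genes per library were listed at 0. A level of 3 reads corresponded to at most 2.87 on the log2 scale. The summed level of 6 chondrocyte markers was 21.21 to 21.22 at D7 and 20.07 to 20.12 at D10, but it was carried by Col2a1, which stood at the top of the equalized scale in every library of D7, D8 and D28 and at 19.87 in every D10 library. The other 5 chondrocyte markers summed to 18.74 to 18.77 at D7, 18.36 to 19.24 at D8, 17.12 to 17.48 at D10 and 18.40 to 18.65 at D28. The summed level of 6 osteoblast markers, carried by Col1a1, was 18.47 to 19.14 at D7, 17.27 to 18.37 at D8, 16.73 to 17.59 at D10 and 17.44 to 17.59 at D28. Of the 6, 2 had fallen at D28 against D7 (Ibsp and Col1a1) and 1 had risen (Bglap), beside 8.66% and 8.63% of all genes, and 4 were lower and 1 higher at an unadjusted p under 0.05 with no fold threshold, beside 24.0% and 21.3%. None of the chondrocyte or osteoblast markers was at 0 in all libraries of a group. The summed level of 4 skeletal muscle markers was 10.87 to 11.33 at D7 and 3.32 to 5.58 at D28.

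Sequence upstream of the annotated start was available for 7 of the 10 genes, in 15 windows of the 250 bases before a RefSeq start (GRCm38.p6). The windows were searched on both strands for the letters of known response elements, and the 3 stretches below are shown because each holds a match to the element for which its gene is known. The full palindrome of the glucocorticoid response element, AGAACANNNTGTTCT, was found in 1 of the 15 windows, upstream of Sgk1, and in 3 of 32851 windows of all genes (0.00913%). The cAMP response element TGACGTCA was found in 1 of the 15 windows, upstream of Dusp1, and in 1.55% of all windows. The core of the metal response element, TGCGCNC or TGCACNC, was found in 3 of the 15 windows and in 21.4% of all windows. It was at 3 places upstream of Mt2 and at 1 place each upstream of Hsd11b1 and Per1. The stretches are written 5′ to 3′ on the strand of the gene, with the matches on either strand in capitals.
Sgk1, chr10:21993640-21993839, plus strand, ending 51 bases before the start: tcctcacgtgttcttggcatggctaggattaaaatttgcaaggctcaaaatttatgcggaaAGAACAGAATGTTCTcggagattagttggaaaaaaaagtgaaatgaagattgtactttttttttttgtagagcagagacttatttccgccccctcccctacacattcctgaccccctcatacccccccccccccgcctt
Dusp1, chr17:26508523-26508722, minus strand, ending 51 bases before the start: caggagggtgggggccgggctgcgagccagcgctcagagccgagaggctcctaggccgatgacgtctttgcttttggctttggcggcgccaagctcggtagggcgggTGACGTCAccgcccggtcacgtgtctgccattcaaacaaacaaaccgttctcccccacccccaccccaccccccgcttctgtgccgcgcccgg
Mt2, chr8:94172368-94172617, plus strand, ending 1 base before the start: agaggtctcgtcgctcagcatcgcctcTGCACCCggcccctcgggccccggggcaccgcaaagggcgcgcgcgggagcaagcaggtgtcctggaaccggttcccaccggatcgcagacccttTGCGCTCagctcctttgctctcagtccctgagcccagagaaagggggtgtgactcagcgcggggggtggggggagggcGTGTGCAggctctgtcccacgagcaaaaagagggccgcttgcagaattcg

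The Sgk1 palindrome lay 189 to 175 bases before 1 of several annotated Sgk1 starts. That start lies inside the annotated span of the gene, and the other Sgk1 windows held no palindrome. The Dusp1 element lay 143 to 136 bases before its start, and the Mt2 elements lay 223 to 217, 128 to 122 and 50 to 44 bases before theirs. A single arm, AGAACA, was found in 4 of the 15 windows, upstream of Sgk1 and Tsc22d3, and in 16.1% of all windows. The E-box CACGTG, a known site of clock factors, was found in 4 of the 15, upstream of Dusp1, Fkbp5, Per1 and Sgk1, and in 6.02% of all windows. In the Sgk1 stretch, 2 such arms make up the palindrome, and another, 242 to 237 bases before the start, overlaps an E-box at 246 to 241. A match is a description of the letters and not a measured binding site. No protein binding was measured in these samples.

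The first question is how the 10 genes changed at the change of medium. A gene is said to have risen or fallen where its fitted log2 difference was at least 1 in size and its limma p-value, adjusted by Benjamini-Hochberg over all 17674 genes tested, was under 0.05. After 1 day in osteogenic medium, 4 of the 10 genes had fallen against D7 (Hsd11b2, Tsc22d3, Zbtb16 and Mt2) and 0 had risen, while 3.81% of all tested genes fell and 3.23% rose. After 3 days, 4 had fallen against D7 (Hsd11b2, Tsc22d3, Fkbp5 and Per1) and 0 had risen, beside 10.4% of all genes that fell and 8.50% that rose. At an unadjusted p under 0.05 with no fold threshold, 0 were higher and 7 lower at D8, beside 18.3% and 14.9% of all genes, and 1 was higher (Dusp1) and 7 lower at D10, beside 25.9% and 22.6%. The median log2 difference of the 10 genes was -0.80 at D8 and -0.71 at D10, against 0.03 and 0.05 over all genes. Both comparisons share the D7 libraries.

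Between D8 and D10, Mt2 rose and Hsd11b2 fell further, while 4.08% of all genes rose and 5.58% fell. Between D7 and D28, Hsd11b1 rose and Sgk1 fell, which left 8 of the 10 with no call, beside 8.63% of all genes that rose and 8.66% that fell. D28 stood apart from the days just after the change of medium. Against D8, 6 genes were higher at D28 (Hsd11b1, Hsd11b2, Tsc22d3, Fkbp5, Zbtb16 and Mt2) and 0 were lower, beside 10.0% and 9.70% of all genes, and at an unadjusted p under 0.05 with no fold threshold 7 were higher and 2 lower, beside 20.4% and 27.6%. Against D10, 5 were higher (Hsd11b1, Hsd11b2, Tsc22d3, Fkbp5 and Zbtb16) and 1, Dusp1, was lower, beside 13.8% and 13.7% of all genes. The median log2 difference of the 10 genes was 1.22 against D8 and 1.17 against D10, and that of all genes was -0.08 and -0.10.

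**Figure D1:**
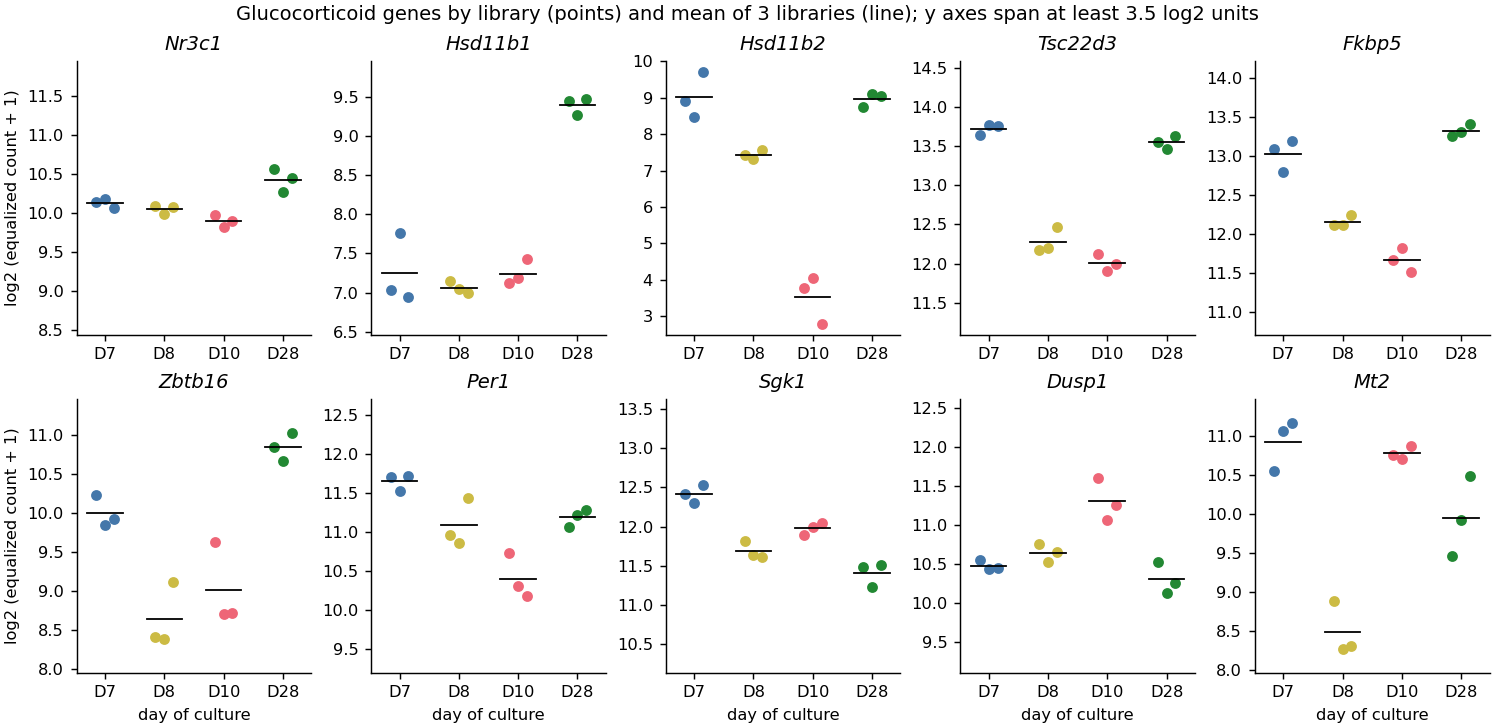
Log2 of the equalized count plus 1 (y axis) of each of the 10 genes in the 3 libraries (points) at D7, D8, D10 and D28 (x axis), with the group mean as a line. Tsc22d3, Fkbp5 and Hsd11b2 dip at D8 and D10 and are high at D7 and D28, whereas Hsd11b1 is high at D28 alone and Nr3c1 stays between 9.82 and 10.56.

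The receptor gene moved little. Nr3c1 (chromosome 18, 39410545 to 39519421, GRCm38, minus strand, protein coding) read 10.14, 10.18 and 10.06 at D7 and 10.09, 9.99 and 10.08 at D8. It read 9.98, 9.82 and 9.90 at D10 and 10.56, 10.26 and 10.44 at D28. The D28 libraries were above every library of the other days, and the D7 and D8 libraries overlapped. The log2 difference was -0.07 at D8 (95% interval -0.29 to 0.14, limma adjusted p = 0.67), -0.23 at D10 (SE 0.10, adjusted p = 0.085) and 0.30 at D28 (SE 0.10, adjusted p = 0.031) against D7. From D10 to D28 it was 0.52 (adjusted p = 0.00043), so Nr3c1 passed the p threshold in D28 comparisons without reaching the fold threshold in any.

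The list of receptor partners held 11 genes: the mineralocorticoid receptor gene Nr3c2, which also binds glucocorticoids, chaperones of the receptor complex, and coactivators. At D10, 6 of the 11 had risen against D7 and 0 had fallen, beside 8.50% and 10.4% of all genes (8 higher and 1 lower at an unadjusted p under 0.05 with no fold threshold, beside 25.9% and 22.6%), and the list's median was 1.00 against 0.05 for all genes. Of the 6, 3 were at the edge of the fold threshold, and are named here after their values were seen: Hsp90ab1 (1.01), Ptges3 (1.00) and Ppid (1.06). Without D10 replicate 1, 4 of the 11 had risen, with Hsp90ab1 at 0.66 and Ptges3 at 0.91, and without D7 replicate 1, 4 had risen, with Ptges3 and Ppid at 0.93. Without D7 replicate 2 the count was 5, with Hsp90ab1 at 0.90. Nr3c2 was low at D7, at 4.14, 4.43 and 4.34, which were 15, 22 and 14 reads, and reached 7.73, 7.36 and 7.20 at D28. It rose by 1.25 at D8, 2.08 at D10 and 3.12 at D28 on the log2 scale against D7 (SE 0.28, adjusted p = 0.0048, 2.6e-05 and 4.3e-07). No library of Nr3c2 at a later day overlapped D7. Hsp90aa1, an inducible HSP90 gene, had a mean of 12.87 ± 0.56 (SD, n = 3) at D7 and 14.41 ± 0.15 at D10, and rose by 1.55 (SE 0.21, adjusted p = 2.8e-05). Hspa8, the constitutive HSC70 chaperone gene, also rose by 1.55 at D10 (SE 0.21, adjusted p = 3.4e-05). At D28 against D7 the list had 1 gene higher and 1 lower of 11, beside 8.63% and 8.66% of all genes, the lower being the coactivator gene Ncoa3 (-1.13, SE 0.14, adjusted p = 1.4e-05).

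The dehydrogenase genes followed separate courses. Hsd11b1 (chromosome 1, 193221634 to 193264075, minus strand) read 7.03, 7.77 and 6.95 at D7, 7.14, 7.05 and 6.99 at D8, and 7.12, 7.18 and 7.42 at D10. These groups overlapped, and the differences against D7 were -0.19 at D8 (95% interval -0.61 to 0.23, limma adjusted p = 0.56) and near 0 at D10 (95% interval -0.43 to 0.41, adjusted p = 0.99). At D28 Hsd11b1 read 9.45, 9.27 and 9.47, above all 9 earlier libraries. It rose by 2.15 against D7 (4.43-fold, SE 0.20, adjusted p = 5.7e-07), by 2.33 against D8 (adjusted p = 1.9e-07) and by 2.15 against D10 (adjusted p = 2.7e-07).

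Hsd11b2 (chromosome 8, 105518755 to 105523988, plus strand) had the widest range of the 10 genes. It read 8.91, 8.48 and 9.71 at D7 and 7.42, 7.31 and 7.58 at D8. At D10 it read 3.76, 4.05 and 2.79, which were 6, 10 and 4 reads. At D28 it was back at 8.74, 9.10 and 9.04, inside the range of D7, while the D8 and D10 libraries each lay below all libraries of D7. Hsd11b2 fell by 1.60 at D8 (3.03-fold lower, SE 0.32, adjusted p = 0.0021) against D7, and the difference reached -5.50 at D10 (45.2-fold lower, adjusted p = 5.2e-09). With values under the 3-read level raised to that level, the fall at D10 was -5.47. D28 differed from D7 by -0.07 (95% interval -0.74 to 0.60, adjusted p = 0.89) and from D10 by 5.43 (adjusted p = 1.8e-09).

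To compare levels between genes, values were divided by the length of all annotated exons, 4251 bases for Hsd11b1 and 1840 for Hsd11b2. The length of the transcripts present was not measured. Per kilobase of exon, Hsd11b1 was below Hsd11b2 in every library of D7, D8 and D28 and above it in every library of D10. The log2 difference, Hsd11b1 minus Hsd11b2, was -3.10, -1.92 and -3.98 at D7, and -1.48, -1.47 and -1.80 at D8. At D10 it was 2.25, 2.00 and 3.64, so that Hsd11b1 was 4.01 to 12.5 times the level of Hsd11b2. At D28 it was -0.50, -1.04 and -0.77, closer to 0 than in any library of D7 or D8. Before division by length, Hsd11b1 was above Hsd11b2 in every D28 library, at 9.45, 9.27 and 9.47 against 8.74, 9.10 and 9.04. The sign at D28 thus rests on the exon lengths used. The change of sign at D10 went with the fall of Hsd11b2, while the Hsd11b1 levels of D7, D8 and D10 overlapped. These are transcript levels, and neither enzyme activity nor steroid was measured.

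**Figure D2:**
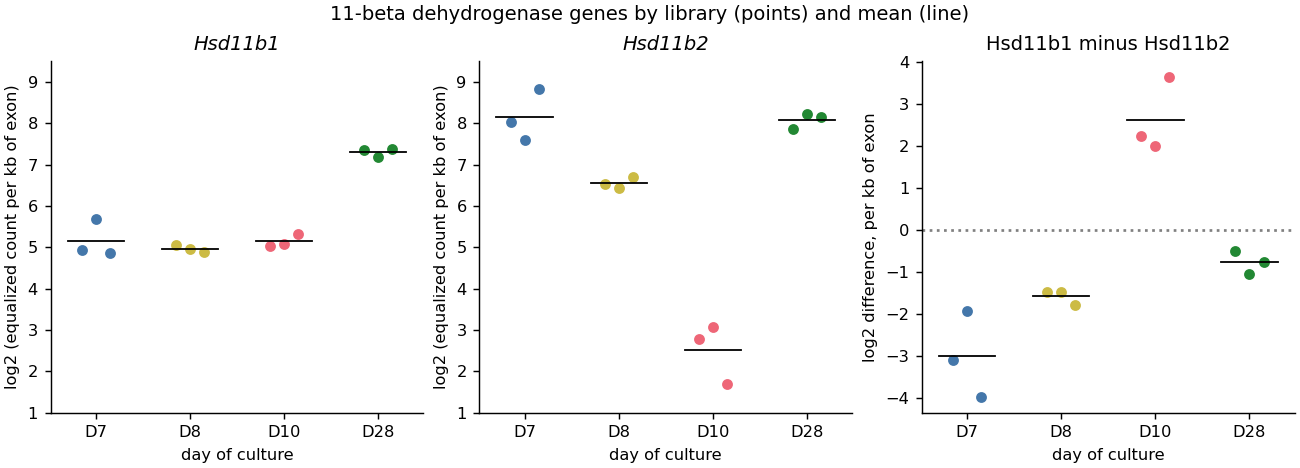
Log2 of the equalized count per kilobase of exon of Hsd11b1 and Hsd11b2 and their difference (y axes) in each library (points) by day (x axis), with the group mean as a line. The difference is below 0 at D7, D8 and D28 and between 2.00 and 3.64 at D10, where Hsd11b2 rested on 4 to 10 reads.

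The list of steroid synthesis, transport and metabolism held 11 genes, of which 7 were tested. Of the 7, 1 had risen at D8 against D7 (Abcb1a), beside 3.23% of all genes, and at D10, 1 had risen (Abcb1a) and 1 had fallen (H6pd), beside 8.50% and 10.4%. The list had 0 calls at D28 against D7 in limma, beside 8.63% and 8.66% of all genes, and 1 gene was higher and 0 were lower at an unadjusted p under 0.05 with no fold threshold, beside 21.3% and 24.0%. Among the synthesis genes, Hsd3b1, Cyp21a1 and Cyp11b1 were listed at 0 in all 12 libraries. Star, which encodes a carrier of cholesterol into mitochondria, was detected in every library, with group means between 5.07 (D7) and 5.35 (D10) and no call against D7. Cyp11a1, the gene of the enzyme that cleaves the cholesterol side chain, was at 0 to 2 reads at D7, 0 or 1 at D8, 0 at D10 and 8, 5 and 2 at D28. H6pd, whose product supplies the cofactor that the Hsd11b1 enzyme uses for regenerating hormone, read 12.88, 12.64 and 12.95 at D7 and 10.71, 11.33 and 11.36 at D10. H6pd fell by 1.69 (SE 0.15, adjusted p = 4.4e-07), and at D28 it was at 12.88, 12.91 and 12.99, with no call against D7. Abcb1a, a drug efflux pump gene whose product also exports steroids, rose by 2.29 at D8 and 3.39 at D10 against D7 (SE 0.34, adjusted p = 0.00020 and 1.2e-06). Its D7 level was low, at 12 to 31 reads, and at D28 it had no call against D7. At D10, the day of the lowest Hsd11b2 level, H6pd was thus lower and Abcb1a higher than at D7.

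Of all pairs of the 10 genes, Tsc22d3 and Fkbp5 had the smallest root mean square difference between their centred log2 values over 12 libraries, 0.26. This measure depends on the size of the changes as well as on their course. Tsc22d3 (chromosome X, 140539528 to 140600659, minus strand), which encodes the leucine zipper protein GILZ, read 13.64, 13.77 and 13.76 at D7. It read 12.17, 12.20 and 12.46 at D8, 12.12, 11.90 and 11.99 at D10, and 13.55, 13.46 and 13.64 at D28. All D8 and D10 libraries lay below all D7 and D28 libraries. Tsc22d3 fell by 1.45 at D8 (2.73-fold lower, SE 0.11, limma adjusted p = 7.8e-07) and by 1.72 at D10 (adjusted p = 1.4e-08) against D7. D28 differed from D7 by -0.18 (95% interval -0.41 to 0.05, adjusted p = 0.23) and was higher than D8 by 1.27 (adjusted p = 2.1e-07) and than D10 by 1.55 (adjusted p = 1.4e-08).

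Fkbp5 (chromosome 17, 28399094 to 28517527, minus strand) encodes a co-chaperone that lowers the affinity of the receptor for its hormone. It read 13.09, 12.79 and 13.18 at D7 and 12.11, 12.12 and 12.24 at D8. It read 11.66, 11.82 and 11.52 at D10 and 13.25, 13.30 and 13.40 at D28. The groups did not overlap in any of the 6 comparisons, and D10 was the lowest and D28 the highest group. Against D7, the D8 difference was -0.87 (SE 0.12, adjusted p = 0.00010), past the p threshold and not the fold threshold, and Fkbp5 fell by 1.35 at D10 (2.56-fold lower, adjusted p = 2.8e-07). D28 differed from D7 by 0.30 (adjusted p = 0.057) and was higher than D8 by 1.16 (adjusted p = 1.1e-06) and than D10 by 1.65 (adjusted p = 1.5e-08).

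Zbtb16 (chromosome 9, 48654297 to 48836222, minus strand) encodes the zinc finger repressor PLZF. It read 10.22, 9.84 and 9.93 at D7 and 8.42, 8.39 and 9.12 at D8. It read 9.63, 8.70 and 8.71 at D10 and 10.84, 10.66 and 11.02 at D28. All D28 libraries were above all others, and D8 and D10 overlapped. Zbtb16 fell by 1.36 at D8 against D7 (SE 0.23, adjusted p = 0.00072). At D10 the difference was -0.98 (adjusted p = 0.0030), short of the fold threshold, and it came to -1.29 without D10 replicate 1, -1.06 without D7 replicate 2, -1.02 without D7 replicate 3 and -1.06 after median-of-ratios scaling, each past both thresholds. D28 was higher than D8 by 2.20 (4.59-fold, adjusted p = 2.0e-06) and than D10 by 1.83 (adjusted p = 8.2e-06), while the difference from D7 was 0.84 (adjusted p = 0.0096).

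Per1 (chromosome 11, 69095217 to 69109960, plus strand) encodes a repressor of the circadian clock that glucocorticoids are known to induce. It read 11.71, 11.52 and 11.72 at D7, 10.96, 10.85 and 11.43 at D8, 10.72, 10.30 and 10.18 at D10, and 11.06, 11.21 and 11.28 at D28. D7 was above all other libraries and D10 below them. Per1 fell by 1.25 at D10 against D7 (2.37-fold lower, SE 0.15, adjusted p = 1.2e-05). The other differences passed at most the p threshold, with -0.57 at D8 (adjusted p = 0.017) and -0.46 at D28 (adjusted p = 0.028) against D7, and 0.79 from D10 to D28 (adjusted p = 0.00052).

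Of 10 other clock genes, 2 had risen at D8 against D7 and 0 had fallen, beside 3.23% and 3.81% of all genes: Ciart, at 1.05 (0.97 without D7 replicate 2), and Dbp, at 1.05 and named after its values were seen. Both calls were at the edge of the fold threshold. Dbp too was lowest at D7 in replicate 2, at 8.74 against 9.09 and 9.24. At D10, 3 had risen and 0 had fallen, beside 8.50% and 10.4% of all genes, while 6 were higher and 3 lower at an unadjusted p under 0.05 with no fold threshold, beside 25.9% and 22.6%. The list had 0 genes with a call at D28 against D7 in limma, where 1 was higher and 2 were lower at the unadjusted threshold, beside 21.3% and 24.0% of all genes. The 3 that rose at D10 were Nr1d2 (1.57, SE 0.13, adjusted p = 2.3e-07), Ciart (1.16, SE 0.18, adjusted p = 9.0e-05) and Nr1d1 (1.14, SE 0.27, adjusted p = 0.0028), each a gene for a transcriptional repressor of the clock. The fold call of Nr1d1 rested on 1 library, since without D10 replicate 1 its difference was 0.74 (limma adjusted p = 0.0074). The 3 lower at the unadjusted threshold, as was Per1, were Per2 (-0.78), Per3 (-0.76) and Cry2 (-0.63), which are named after their values were seen and fell short of the fold threshold. The hour of harvest was not given in the sources used here.

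**Figure D3:**
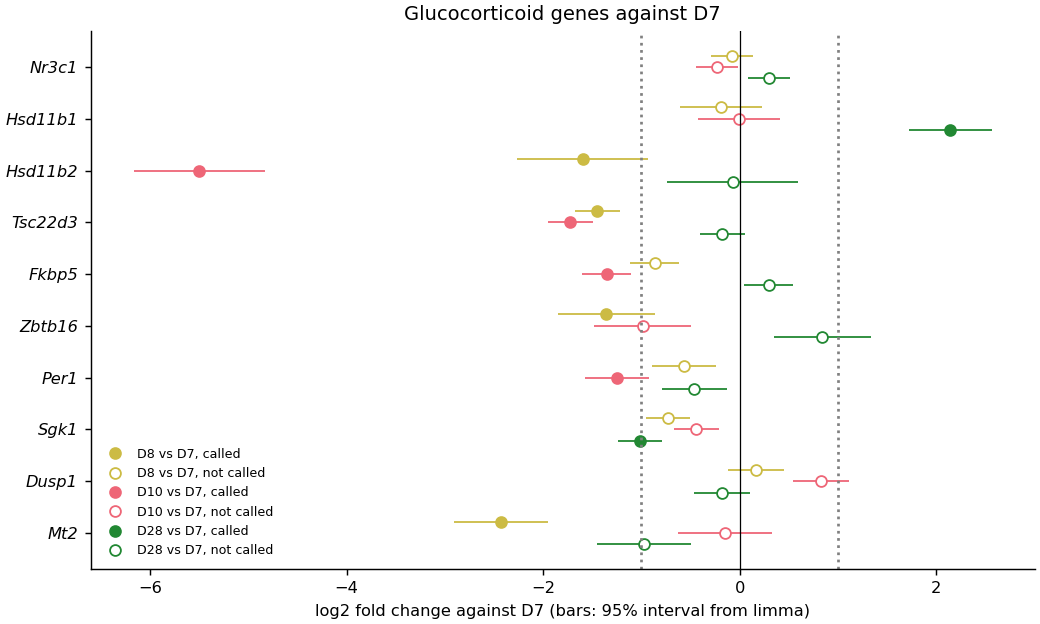
Fitted log2 difference from D7 (x axis) of each of the 10 genes (y axis) at D8, D10 and D28, with 95% intervals from limma as bars. Filled points passed both thresholds and dotted lines mark a log2 difference of 1 in either direction. At D8 and D10 all filled points are to the left of 0, down to -5.50 for Hsd11b2, and at D28 the filled points are Hsd11b1 at 2.15 and Sgk1 at -1.01.

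Sgk1 (chromosome 10, 21882184 to 21999903, plus strand), a kinase gene induced by serum and by glucocorticoids and the gene with the full palindrome shown above, did not return at D28. It read 12.41, 12.30 and 12.53 at D7, 11.82, 11.63 and 11.61 at D8, 11.89, 12 and 12.04 at D10, and 11.48, 11.23 and 11.51 at D28. D7 was the highest group and D28 the lowest, and no groups overlapped. Against D7 the difference was -0.73 at D8 (SE 0.11, adjusted p = 0.00019) and -0.44 at D10 (adjusted p = 0.0036), short of the fold threshold. At D28 Sgk1 fell by 1.01 (2.01-fold lower, adjusted p = 2.3e-06). That call was at the edge of the fold threshold, and the difference was -0.95 without D7 replicate 3, -0.92 without D28 replicate 2 and -0.95 after median-of-ratios scaling.

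Dusp1 (chromosome 17, 26505590 to 26562128, minus strand), a phosphatase gene whose product switches off MAP kinases, went the other way at D10. It read 10.56, 10.43 and 10.45 at D7, 10.75, 10.52 and 10.65 at D8, 11.59, 11.07 and 11.25 at D10, and 10.52, 10.12 and 10.26 at D28. All D10 libraries were above all others, which overlapped. Against D7 the D10 difference was 0.83 (SE 0.13, adjusted p = 0.00015), short of the fold threshold, and the D8 difference was 0.16 (adjusted p = 0.44). From D10 to D28 Dusp1 fell by 1.00 (adjusted p = 1.4e-05), a call at the edge of the fold threshold. The difference was -0.86 without D10 replicate 1, -0.91 without D28 replicate 2, -0.98 without D28 replicate 3 and -0.87 after median-of-ratios scaling. An exon of Dusp1 overlaps an exon of Ergic1 on the opposite strand. The library kit keeps the strand, but whether the counting used it was not given in the sources used here.

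Immediate early genes, which like Dusp1 and Sgk1 respond quickly to growth factors and stress, were listed for comparison. Of 7 of them, 0 had a call at D8 against D7 in limma (3 higher and 1 lower at an unadjusted p under 0.05 with no fold threshold, beside 18.3% and 14.9% of all genes). At D10, 2 had risen, beside 8.50% of all genes, and at D28, 1 had fallen, beside 8.66%. Atf3, a stress-induced transcription factor gene, read 9.40, 9.38 and 9.56 at D7 and 12.66, 11.32 and 11.52 at D10, and rose by 2.39 (SE 0.33, adjusted p = 3.2e-05). Egr1, a growth factor-induced transcription factor gene, rose by 1.96 (SE 0.19, adjusted p = 9.0e-07). Junb, a subunit gene of the AP-1 transcription factor, fell by 1.48 at D28 against D7 (SE 0.14, adjusted p = 9.1e-07). Atf3, Egr1 and Dusp1 were each highest at D10.

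Mt2 (chromosome 8, 94172664 to 94173568, plus strand), a metallothionein gene that responds to metals as well as to glucocorticoids, fell at D8 and was back in its D7 range at D10. It read 10.54, 11.06 and 11.16 at D7, 8.88, 8.27 and 8.31 at D8, 10.75, 10.70 and 10.87 at D10, and 9.46, 9.92 and 10.48 at D28. All D8 libraries were below all others, and D7 and D10 overlapped. Mt2 fell by 2.43 at D8 against D7 (5.40-fold lower, SE 0.23, adjusted p = 4.6e-06) and rose by 2.29 from D8 to D10 (4.88-fold, adjusted p = 6.4e-06). D28 was higher than D8 by 1.46 (adjusted p = 8.4e-05) and differed from D7 by -0.97 (adjusted p = 0.0031), short of the fold threshold. The difference between D28 and D7 was -1.16 without D7 replicate 1 and -1.23 without D28 replicate 3. From D10 to D28 it was -0.82 (adjusted p = 0.0061), and -1.09 without D28 replicate 3.

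The gene with the pattern most like that of Mt2 was its close copy Mt1, and the division of reads between such copies by the counting is uncertain. An exon of Mt2 also overlaps Gm45774 on the opposite strand. Of 5 listed genes of the metal response, 1 had fallen at D8 against D7, beside 3.81% of all genes: Mt1, with a difference of -1.47 (SE 0.20, adjusted p = 0.00012). At D10, 3 had risen and 0 had fallen, beside 8.50% and 10.4% of all genes: the metallothionein gene Mt3, the zinc exporter gene Slc30a1 and the zinc importer gene Slc39a10. Slc30a1 rose by 1.28 (SE 0.23, adjusted p = 0.00038) from 7.14, 7.53 and 7.52 to 9.11, 8.43 and 8.49. Slc39a10 rose by 1.07 (SE 0.16), and by 0.93 to 1.00, short of the fold threshold, without D7 replicate 1, D7 replicate 3 or D10 replicate 1. Mt3 rose by 1.86 (SE 0.62, adjusted p = 0.025) on 4 to 9 reads at D7, a call that was lost without D7 replicate 2 or D10 replicate 2 (adjusted p = 0.10 and 0.096).

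Per kilobase of exon, the order of the 10 genes was led by Mt2 and Tsc22d3 on every day except D8. The length used was that of all annotated exons of a gene, so the order depends on it as well as on the level. At D7 the mean log2 levels per kilobase were 11.69 ± 0.33 for Mt2 and 11.61 ± 0.07 for Tsc22d3 (SD, n = 3), a gap within their spread. Sgk1 (10.12), Fkbp5 (9.78), Per1 (9.16) and Dusp1 (8.75) followed, then Hsd11b2 (8.15), Zbtb16 (7.60) and Nr3c1 (7.18), with Hsd11b1 lowest at 5.15 ± 0.45. At D8 Tsc22d3 led at 10.16 ± 0.16, Sgk1 (9.39) and Mt2 (9.25) did not differ beyond their spread, and neither did Fkbp5 and Dusp1 (both 8.91). At D10 Hsd11b2 was lowest at 2.51 ± 0.73, below Hsd11b1 at 5.15 ± 0.16. At D28 Tsc22d3 led at 11.43 ± 0.09, and Nr3c1 (7.48 ± 0.15) and Hsd11b1 (7.30 ± 0.11) were lowest and near each other. On this scale the receptor gene was among the less abundant of the 10 transcripts at every day.

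Other genes known to be induced through the receptor were taken as a list of 18. At D8, 1 had risen and 5 had fallen against D7, beside 3.23% and 3.81% of all genes. At D10, 3 had risen and 8 had fallen, beside 8.50% and 10.4%, with a median of -0.76 against 0.05 for all genes. At D28, 7 of the 18 had risen and 0 had fallen against D7, beside 8.63% and 8.66%, with a median of 0.86 against -0.03. D28 had 12 of the 18 higher and 0 lower against D8, beside 10.0% and 9.70%, with a median of 1.37 against -0.08. Against D10, 11 were higher and 1 was lower at D28, beside 13.8% and 13.7%, with a median of 2.21 against -0.10. At an unadjusted p under 0.05 and with no fold threshold, 6 of the 18 were higher and 10 lower at D10 than at D7, beside 25.9% and 22.6% of all genes, and 14 were higher and 1 was lower at D28 than at D7, beside 21.3% and 24.0%.

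Glul, the gene of glutamine synthetase, read 11.07, 11.12 and 11.38 at D7, 9.12, 8.30 and 8.71 at D10, and 13.51, 13.68 and 13.84 at D28. It fell by 2.47 at D10 (SE 0.18, adjusted p = 5.4e-08) and rose by 2.49 at D28 (adjusted p = 4.9e-08) against D7. Cebpd, a transcription factor gene of early fat cell formation, read 12.05, 11.77 and 11.99 at D7 and 9.27, 9.37 and 9.40 at D10, and it fell by 2.59 (SE 0.11, adjusted p = 4.6e-10). Hif3a, a gene of the hypoxia response, fell by 3.79 at D10 (SE 0.24, adjusted p = 1.5e-08) to 22, 56 and 40 reads. Neither had a call at D28 against D7. Cebpd, at 12.38, 12.50 and 12.66 at D28, was above all its D7 libraries (0.57, adjusted p = 0.00079), past the p threshold alone, and Hif3a was at 9.94, 10.17 and 10.15. Sesn1, a stress-induced inhibitor of the mTOR pathway, had fallen by 2.14 at D10 (SE 0.11, adjusted p = 2.2e-09) and risen by 1.67 at D28 (adjusted p = 2.1e-08) against D7. Fam107a rose by 3.70 at D28 against D7 (SE 0.42, adjusted p = 5.4e-06) from 14, 6 and 2 reads, and its rise of 1.36 at D10 lost the call without D7 replicate 3 or D10 replicate 3 (adjusted p = 0.087 and 0.057).

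**Figure D4:**
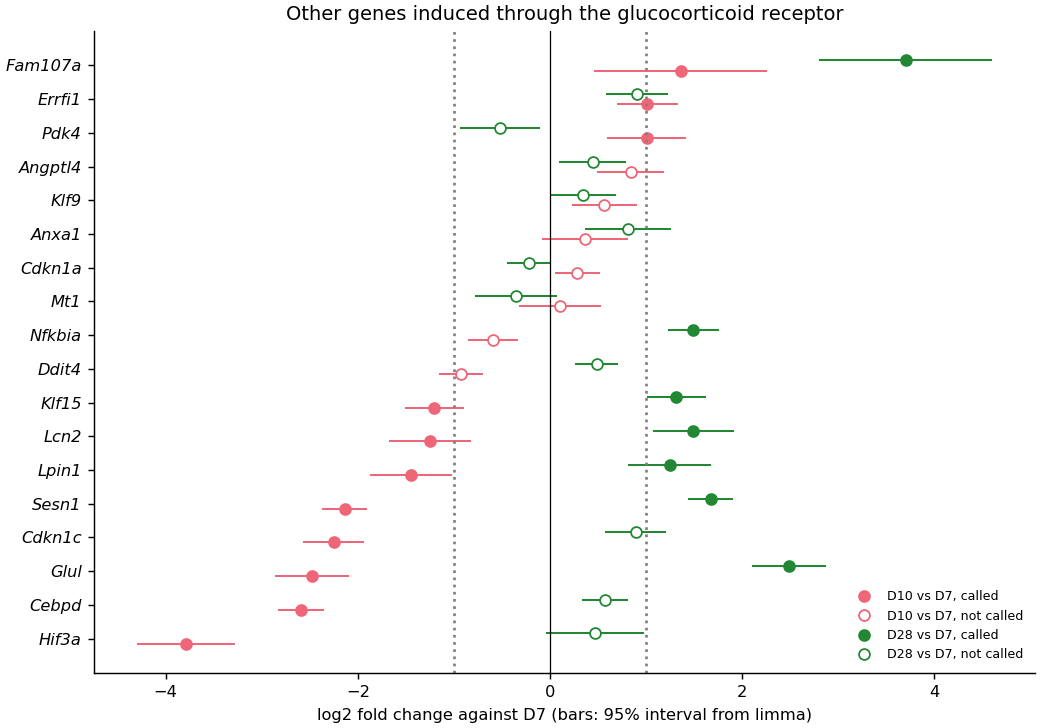
Fitted log2 difference from D7 (x axis) at D10 and D28 of the 18 other genes known to be induced through the glucocorticoid receptor (y axis, ordered by the D10 value), with 95% intervals from limma as bars. Filled points passed both thresholds. At D10, 8 filled points lie to the left of 0 and 3 to the right, and at D28 all 7 filled points lie to the right.

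Genes known to be repressed through the receptor were a list of 8. At D8, 3 had risen and 2 had fallen against D7, beside 3.23% and 3.81% of all genes. At D10, 5 had risen and 2 had fallen, beside 8.50% and 10.4%, and at D28, 2 had risen and 2 had fallen, beside 8.63% and 8.66%. The median log2 differences of the list were 0.42, 1.59 and -0.32, against 0.03, 0.05 and -0.03 for all genes. Ptgs2, which encodes the inducible cyclooxygenase, read 8.73, 8.87 and 8.51 at D7, 11.34, 11.26 and 11.04 at D8, and 13.84, 13.47 and 13.89 at D10. It rose by 2.51 at D8 and by 5.03 at D10 (32.6-fold, SE 0.32, adjusted p = 1.5e-08), and at D28, at 9.01, 7.06 and 8.27, it had no call against D7. Il6, a cytokine gene, was at 3, 10 and 2 reads at D7 and rose by 3.28 at D10 (SE 0.69, adjusted p = 0.0014), to 34, 28 and 47 reads.

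Not all members of that list followed Ptgs2 at every day. Nos2, the inducible nitric oxide synthase gene, fell by 5.12 at D10 against D7 (SE 0.45, adjusted p = 3.8e-07), from 7.59, 7.59 and 7.56 to 1, 3 and 5 reads, and by 2.65 at D28 (adjusted p = 0.00026). With values under the 3-read level raised to that level, the fall at D10 was -4.64. Il11, a cytokine gene, rose from a mean of 6.50 at D7 to 8.16 at D8 and 7.64 at D10, both called. Its D10 difference was 0.96 without D10 replicate 2. At D28 it was 2.75 lower than at D7 (SE 0.27, adjusted p = 9.7e-07). The chemokine gene Ccl2 rose from 3.24 to 5.18 at D8 and 5.28 at D10, both called, and was 2.61 higher at D28 than at D7 (SE 0.43, adjusted p = 0.00021). Across the 4 lists of receptor partners, steroid metabolism, induced and repressed genes, 44 of 48 genes were tested, of which 15 had risen and 11 had fallen at D10, and 10 had risen and 3 had fallen at D28, against D7. The shares of all genes were 8.50% risen and 10.4% fallen at D10 and 8.63% and 8.66% at D28.

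Markers of fat cells, and some markers of other cell types, moved in the same directions as several of these genes. The summed level of 6 adipocyte markers was 11.94 to 12.20 at D7, 10.81 to 11.24 at D8, 9.89 to 10.46 at D10 and 15.33 to 15.77 at D28. Of the 6, 4 had fallen at D8 and 5 at D10 against D7, beside 3.81% and 10.4% of all genes, and all 6 were higher at D28 than on each other day, beside 8.63% to 13.8%, with Lep at 0 in all D10 libraries. Among the 10 genes, Hsd11b1, which fat cells are known to express, rose at D28 and had no call at D8 or D10 against D7. Tsc22d3, Fkbp5, Hsd11b2 and Per1 fell at D10 and had no call at D28 against D7. The D28 libraries of Per1, and by a narrow margin those of Tsc22d3, were still below all D7 libraries of the same gene. The summed level of 4 macrophage markers was 7.55 to 7.93 at D7, 8.32 to 8.69 at D8, 8.86 to 9.92 at D10 and 7.84 to 9.74 at D28, but it was carried by Cd68, which rose from a mean of 7.32 at D7 to 9.20 at D10, while Adgre1 fell from 4.98 to 2.80 and Csf1r was at 4.79 and 3.29. Of 6 osteoblast markers, 3 had fallen and 1 had risen at D8 against D7, and 4 had fallen and 1 had risen at D10. Of 6 chondrocyte markers 4, and of 3 hypertrophic chondrocyte markers 2, had fallen at D10, and 0 had risen. From D10 to D28, 4 osteoblast, 3 chondrocyte and 2 hypertrophic markers rose, and 0, 0 and 1 fell. The shares of all genes were 3.81% fallen and 3.23% risen at D8, 10.4% and 8.50% at D10, and 13.7% and 13.8% from D10 to D28. The part of these cell types in the levels of the 10 genes was not tested.

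**Figure D5:**
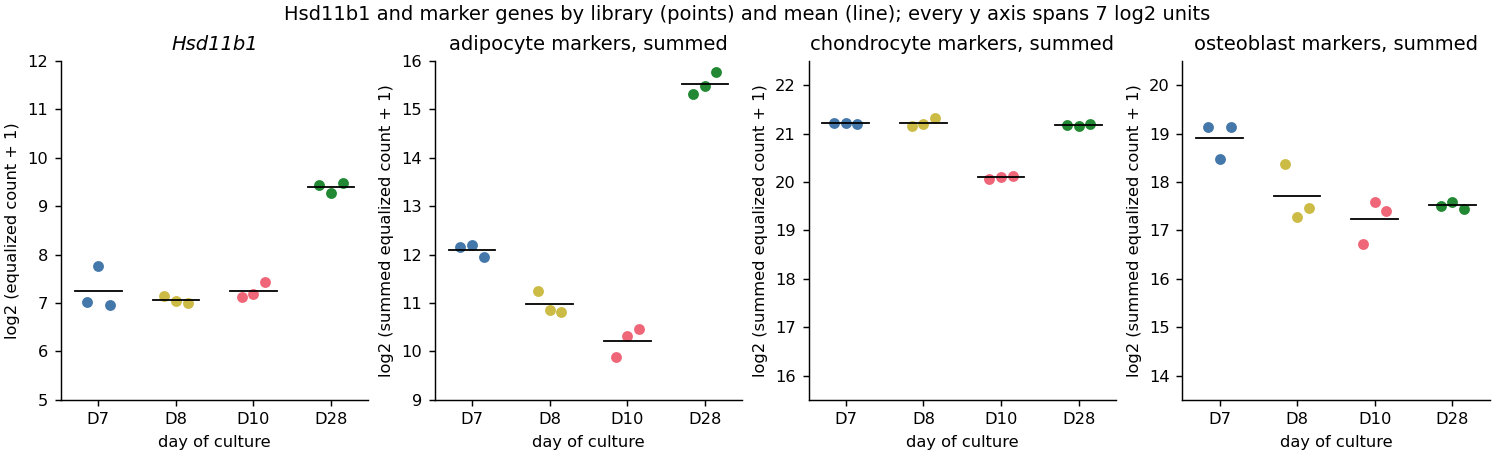
Log2 level of Hsd11b1 and of the summed adipocyte, chondrocyte and osteoblast markers (y axes, each spanning 7 log2 units) in each library (points) by day (x axis), with the group mean as a line. The adipocyte markers stand at 15.33 to 15.77 and Hsd11b1 at 9.27 to 9.47 at D28, both above all earlier libraries, while the chondrocyte sum, which Col2a1 at the top of the scale carries, is lowest at D10.

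For each of the 10 genes, the genes with the most similar course were those with the smallest root mean square difference of centred log2 values over the 12 libraries, among 12171 genes. The nearest to Nr3c1 was Cask (0.09), to Fkbp5 Auh (0.10), to Dusp1 Kbtbd2 (0.10), to Per1 Zfp516 (0.13) and to Sgk1 Gramd3 (0.15). The nearest to Tsc22d3 were Shisa2 (0.17), Hspb7 and Zfp36l1, and to Zbtb16 Cers4 (0.29), Mertk and Dapk1. Hsd11b1 was followed most closely by Rgs2 (0.21), by Dgat1, which encodes an enzyme of triglyceride synthesis, and by Idh1, an NADP-dependent dehydrogenase gene. The nearest to Hsd11b2 was the imprinted gene Mest (0.45), and to Mt2 it was Mt1 (0.38). Genes with small changes have small differences by construction, so these distances are not compared between the 10 genes.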

How the data were processed

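Polyadenylated RNA from pellet cultures was sequenced in 12 libraries made with a stranded kit. Per the submitters' processing notes and the supplementary methods, the authors used Trimmomatic 0.36, HISAT2, Cufflinks and HTSeq, then equalized the counts between libraries and deposited log2 of the value plus 1. The labels name GRCm38, whereas the supplementary methods name a human build. Sorted values are nearly the same in each library, so total depth is lost and relative depth was read from the lowest levels. The filter kept genes reaching a log2 level of 1 in 3 or more libraries. limma 3.58.1 (R 4.3.3) was fitted to all 12 libraries, with 1 coefficient per day and a variance trend (8 residual and 7.23 prior degrees of freedom). The moderated p-values are two-sided. On data simulated for D10 against D7 over 17674 genes, 192 of 200 genes changed by 2 log2 units were recovered with 4 false calls. The changed genes were drawn only from genes above a minimum mean level. Recovery of changes near 1 log2 unit, or of genes at a few reads, was not covered.

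The 10 genes and all lists were chosen with earlier results of these data known, so list counts are descriptions. From each list, genes with the 3 largest called changes at D10 or D28 against D7, or at 3 reads or fewer throughout, could be named. Star, Cyp11a1 and Mt1, and the genes marked as named after their values were seen, fall outside this rule. Ranges, positions (GENCODE M21) and figures were made in Python 3.11.15. Alternatives were 2 other filters, median-of-ratios scaling, a pseudocount of 0.1, a 3-read floor, no fold threshold, the study's own test, a replicate block and each library left out. The marker sum without Col2a1 and the left-out counts of the receptor list were added after seeing the data. Counting intervals cover counting error only. No count test was used, and qPCR and histology were not analysed here.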

Additional observations from a re-analysis of the deposited data

How the results depend on the processing

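Counts of the 10 genes called moved with the thresholds more than with the values. With no fold threshold, 7 passed at D8 against D7, 7 at D10 against D7, 5 at D10 against D8, 6 at D28 against D7 and 10 at D28 against D10, where 21.0%, 41.2%, 28.8%, 37.3% and 52.4% of all genes passed, and of the other pathway genes 25, 22 and 21 passed at D8 against D7, D10 against D8 and D28 against D7. After median-of-ratios scaling, which moved the median of all genes by 0.11 at D28 against D10 and less elsewhere, 1 of the 10 was called at D28 against D7. With each library left out in turn, that count was 1 to 3. The sign of uncalled differences near 0 changed: Hsd11b1 ranged from -0.34 to 0.071 at D8 and from -0.16 to 0.25 at D10 against D7, Hsd11b2 from -0.35 to 0.27 at D28 against D7, and Per1 from -0.011 to 0.28 at D28 against D8. Of the single fold changes of the 10 genes under the alternatives, 800 kept direction and side of the threshold, 7 changed sign, 7 lost the call and 7 gained it, for causes not tested, and 19 passed only because the fold threshold was removed. The other filters, the replicate block, the study's own test and the lack of a fold threshold leave the fold change itself unchanged. Direction could therefore not change under those alternatives, and the 800 include them. No pairing by replicate number was seen over all genes: deviations of same-numbered libraries correlated at -0.06 to 0.07 over 18 pairs. A shared preparation that affects few genes would not show in such correlations, so pairing was not excluded. With a replicate block 4 of the 10 were called at D8 and 4 at D10 against D7, and 1210 of all genes at D8 against D7 in place of 1244. Depth limits Hsd11b2, Nos2 and Il6 at their lowest.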

Other observations

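D10 replicate 1 had the lowest relative depth of the 12 libraries (0.730) and the highest level of the D10 libraries for several of the genes above. Zbtb16 read 9.63 in it against 8.70 and 8.71 in the other D10 libraries, and Dusp1 read 11.59 against 11.07 and 11.25. Per1 read 10.72 against 10.30 and 10.18. Nr1d1 read 12.87 against 11.67 and 11.68, Atf3 12.66 against 11.32 and 11.52, and Hspa8 16.38 against 15.34 and 15.52. H6pd was lowest in it, at 10.71 against 11.33 and 11.36. Tsc22d3, Fkbp5, Sgk1 and Mt2 did not stand apart there.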
